A study of Mus musculus with 18 samples.

Results

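Interferon response genes are transcripts that cells make when interferon reaches them. The 30 mouse genes described here are 3 transcription factors, 4 nucleic acid sensors, 5 members of the oligoadenylate synthetase (OAS) family, 3 members of the IFIT family, 2 genes of the ISG15 system, 4 Mx and Gbp GTPases and 9 other effectors. They were chosen by name, as the probes on an Agilent mouse array that carry the current or an older symbol of a listed gene. Of the 30 genes, 29 had a named probe, with 48 probes in all, out of 20657 named genes and 41174 probes on the array. Xaf1 had no probe with its name. A total of 28 genes had a probe well above background on at least 5 of the 18 arrays and were tested, among 13357 genes tested in all. Ifi44 was not tested: of its 2 probes, one passed the background test on 2 of the 6 arrays at 8 Gy and 2 of the 7 at 0 Gy, and the other on no array.

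Interferons are secreted when cells sense foreign or misplaced nucleic acid. Type I interferon binds the receptor IFNAR1/IFNAR2, the kinases JAK1 and TYK2 phosphorylate STAT2, which joins IRF9 in a complex that binds the interferon-stimulated response element (ISRE) in front of target genes. The targets encode antiviral enzymes, RNA and DNA sensors, and IRF7, which feeds back on interferon production. The receptor is carried by nearly all nucleated blood cells.

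Whole blood of 18 male C57BL/6N mice aged 8 to 12 weeks was profiled to look for blood transcripts that mark radiation exposure. A total of 7 mice were sham treated (0 Gy), 5 received 2 Gy and 6 received 8 Gy of gamma rays from a cesium source, and blood was taken from the heart 6 hours later. The labels name no other treatment and no transgene, and each mouse gave 1 array. RNA came from the RiboPure kit in 5, 4 and 6 mice and from the PAXgene kit in 2, 1 and 0 mice at 0, 2 and 8 Gy, globin RNA was removed, and the labelled RNA was hybridised in a single colour. Levels below are the log2 of the processed signal minus the 75th percentile of the same array, so a level of 0 is the signal of that percentile and a difference of 1 is a 2-fold difference. In whole blood, fewer cells of a type and less RNA per cell cannot be told apart.

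The processed signal at that percentile lay between 148 and 443 units in sham-treated mice, between 49.2 and 198 units after 2 Gy, and between 61.3 and 247 units after 8 Gy. Markers of the blood lineages were present: 12 of 12 B-cell, 12 of 12 T-cell, 11 of 11 NK-cell and 13 of 14 neutrophil markers were tested. One array went against its label. The mean level of 10 p53 target genes, relative to the 0 Gy mean, was 1.98 on the array labelled 0 Gy replicate 5, against -0.89 to 0.0016 on the other 6 arrays at 0 Gy, while irradiated mice spanned 1.36 to 2.57. The mean of the B-cell markers on that array was -1.92, against -0.17 to 0.86 on the other 6. This array stayed at 0 Gy as labelled, and each count of calls against 0 Gy at the adjusted threshold that changes when it is left out is given that way too.

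Promoters of 21 of the 30 genes were found in a RefSeq table on the mouse build GRCm38.p6, as windows of 300 bases that start 250 bases before the annotated start. Each window was searched for the core of the ISRE, GAAANNGAAA or its reverse complement TTTCNNTTTC, with overlapping matches counted. The 21 genes had 26 windows, since a gene can have several starts. A match occurred in 12 of the 26 windows (46.2%), which belong to 12 genes, against 3.44% of all 32851 promoter windows in the table. Dhx58, Ifi27l2a, Mx1, Mx2, Oas2, Parp14, Rtp4, Usp18 and Zbp1 had no entry. The windows below show ISRE cores in capitals in front of genes that rose after 8 Gy (Ifit3, Ifit1 and Gbp2), of Isg15, which did not pass the test, and of Gbp3, the one tested gene with a negative change, while Oasl1 rose and its window holds no such letters. They lie at chr19:34583279-34583578 (Ifit3, plus strand), chr19:34640639-34640938 (Ifit1, plus strand), chr3:142620413-142620712 (Gbp2, plus strand), chr4:156200769-156201068 (Isg15, minus strand), chr3:142559794-142560093 (Gbp3, plus strand) and chr5:114922990-114923289 (Oasl1, plus strand), and each is written on the strand of its gene.
Ifit3: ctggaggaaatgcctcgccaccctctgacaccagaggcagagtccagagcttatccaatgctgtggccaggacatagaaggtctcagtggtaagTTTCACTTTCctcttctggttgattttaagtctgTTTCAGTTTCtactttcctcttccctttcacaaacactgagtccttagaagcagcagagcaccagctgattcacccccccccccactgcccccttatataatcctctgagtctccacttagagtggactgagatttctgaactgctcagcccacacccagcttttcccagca
Ifit1: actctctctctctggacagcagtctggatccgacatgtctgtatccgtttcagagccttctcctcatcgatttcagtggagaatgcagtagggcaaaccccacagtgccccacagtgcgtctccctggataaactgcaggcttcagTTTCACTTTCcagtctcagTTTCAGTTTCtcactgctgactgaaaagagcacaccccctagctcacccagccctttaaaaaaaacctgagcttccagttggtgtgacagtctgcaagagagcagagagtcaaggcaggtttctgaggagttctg
Gbp2: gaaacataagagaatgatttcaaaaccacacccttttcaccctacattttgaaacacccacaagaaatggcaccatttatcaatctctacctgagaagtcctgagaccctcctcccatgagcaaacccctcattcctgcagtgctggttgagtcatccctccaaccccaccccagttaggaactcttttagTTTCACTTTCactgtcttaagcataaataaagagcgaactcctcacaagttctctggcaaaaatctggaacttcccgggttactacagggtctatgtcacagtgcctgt
Isg15: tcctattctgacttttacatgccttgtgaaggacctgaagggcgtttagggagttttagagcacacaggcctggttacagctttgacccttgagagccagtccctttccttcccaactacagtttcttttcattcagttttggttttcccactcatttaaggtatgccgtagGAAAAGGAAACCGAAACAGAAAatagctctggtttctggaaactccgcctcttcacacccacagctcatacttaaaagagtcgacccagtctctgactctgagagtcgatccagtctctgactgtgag
Gbp3: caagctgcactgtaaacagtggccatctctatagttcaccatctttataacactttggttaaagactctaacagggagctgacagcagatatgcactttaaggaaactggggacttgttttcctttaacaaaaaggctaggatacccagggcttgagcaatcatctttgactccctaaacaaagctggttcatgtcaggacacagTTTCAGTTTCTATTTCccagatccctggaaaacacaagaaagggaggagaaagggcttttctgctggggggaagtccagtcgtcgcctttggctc
Oasl1: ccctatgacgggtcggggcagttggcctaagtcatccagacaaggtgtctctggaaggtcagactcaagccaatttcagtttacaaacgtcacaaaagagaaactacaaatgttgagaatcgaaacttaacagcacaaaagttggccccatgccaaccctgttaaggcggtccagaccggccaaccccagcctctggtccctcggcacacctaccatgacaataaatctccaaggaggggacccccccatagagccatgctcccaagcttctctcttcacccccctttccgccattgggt

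In Ifit3 the capitals begin 156 and 122 bases before the annotated start, and in Ifit1 104 and 85 bases before it. The run in Isg15 holds 3 overlapping matches whose first begins 78 bases before the start, and that in Gbp3 holds 2 overlapping matches whose first begins 45 bases before the start. The single match in Gbp2 begins 59 bases before the start. Among the tested genes with a promoter entry, the ISRE core was found in 3 of the 6 that rose after 8 Gy and in 9 of the 13 that did not pass the test. The list also shares position: the 5 OAS genes lie on chromosome 5, the 3 Ifit genes on chromosome 19, Gbp2, Gbp3 and Ifi44 on chromosome 3, Mx1, Mx2, Rtp4 and Parp14 on chromosome 16, and Rsad2 and Cmpk2 side by side on chromosome 12 with Ifi27l2a elsewhere on it.

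The first comparison asks which of the genes differed 6 hours after 8 Gy. Of the 28 tested genes, 10 rose and none fell: Ifit3, Oas2, Oasl1, Rtp4, Oasl2, Ifit1, Mx1, Gbp2, Usp18 and Isg20. Over all genes tested, 7.25% were called higher and 4.68% lower. The rises were between 2.00-fold (Isg20) and 4.25-fold (Ifit3). A positive change was fitted for 27 of the 28 genes, and the median log2 fold change was 0.85, against 0.06 over all genes. Without the array labelled 0 Gy replicate 5, 16 of 28 rose and none fell, against 14.5% of all genes called higher and 7.82% called lower, and the median was 1.01; the genes added were Ifih1, Zbp1, Oas1a, Oas3, Ifit2 and Rsad2. At an unadjusted p under 0.05, 20 of the 28 genes were higher, against 19.6% of all genes. The test was limma's moderated test in a model of dose and RNA kit, with Benjamini-Hochberg adjustment over all 13357 genes and a threshold of 0.05.

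The calls lay near the threshold, and leaving out 1 array moved their number. Beside the 16 genes above, 15 passed when 8 Gy replicate 1 was left out, with 21.4% of all genes called in either direction, against 11.9% with all arrays. A single gene passed when 0 Gy replicate 1 was left out, with 1.97% of all genes called. In the absence of 0 Gy replicate 2 or 8 Gy replicate 6, 4 genes passed, with 2.42% and 2.85% of all genes called. In the absence of 8 Gy replicate 3, 4 or 5, 5 genes passed, with 2.73% to 4.22% of all genes called. In the absence of 0 Gy replicate 4 or 8 Gy replicate 2, 6 genes passed, with 6.13% and 4.51% of all genes called. Rtp4 was past the threshold whichever of the 18 arrays was left out. When a fixed term for the slide, for the scan day or for array brightness was added, 0 of the 28 genes and 0 of all genes passed in limma, while 2, 8 and 10 of the 28 had an unadjusted p under 0.05, against 8.82%, 18.6% and 13.8% of all genes at that p in either direction.

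**Figure D1:**
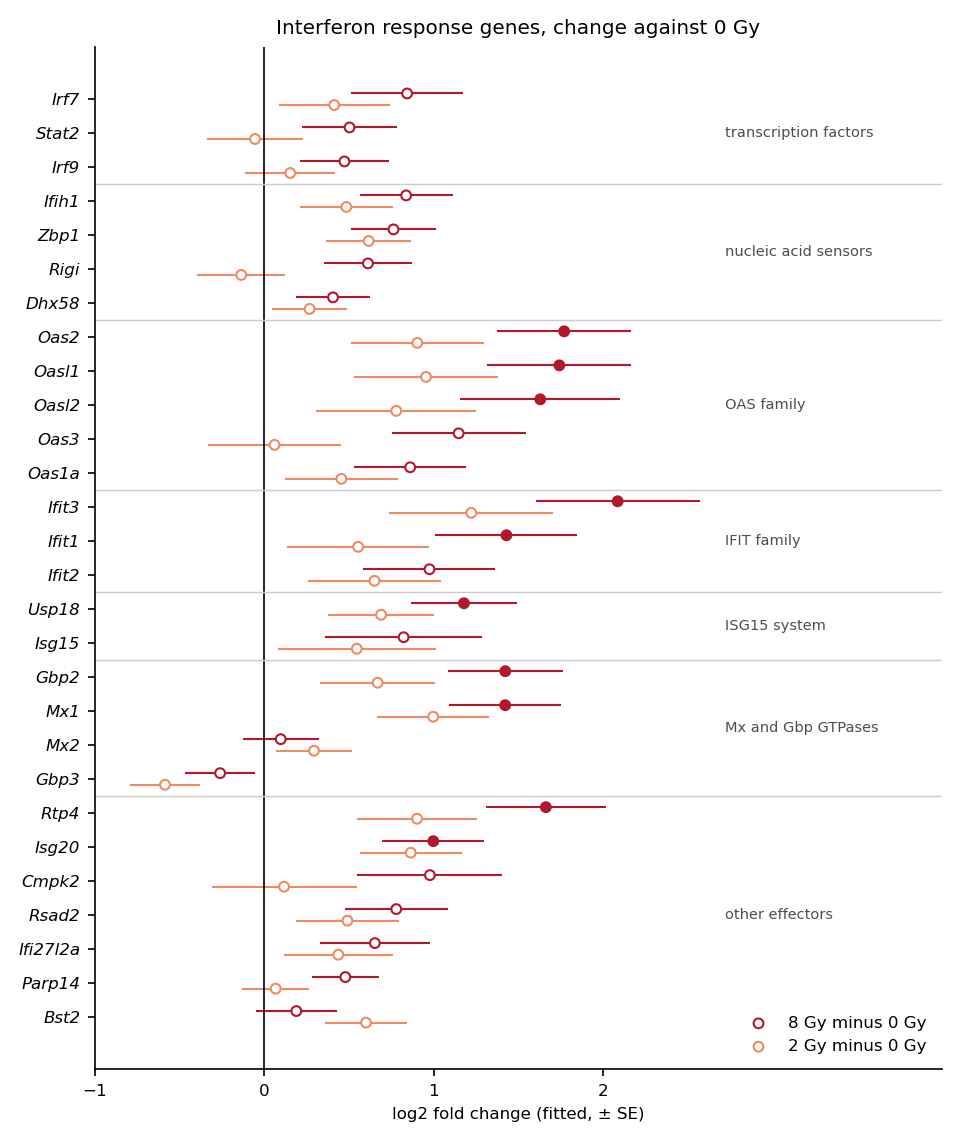
Fitted log2 fold change (x axis, ± SE) of the 28 tested genes at 8 Gy and at 2 Gy, each against 0 Gy, grouped by role. Filled points passed the threshold: 10 genes at 8 Gy and 0 at 2 Gy. Gbp3 is the only gene left of 0 at 8 Gy.

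The OAS enzymes make short oligoadenylates on binding double-stranded RNA, which activate RNase L, and the OAS-like proteins Oasl1 and Oasl2 are their relatives. Of the 5 genes, 3 rose after 8 Gy, against 7.25% of all genes called higher. All 5 did so without the array labelled 0 Gy replicate 5, against 14.5%. Oas2 ranged from 2.63 to 3.90 with a median of 3.13 at 8 Gy, against 0.11 to 2.59 with a median of 1.04 at 0 Gy. All 6 arrays at 8 Gy were above all 7 at 0 Gy. The change in Oas2 was 1.77 ± 0.39 on the log2 scale (SE), or 3.41-fold (limma, adjusted p = 0.0178), and it missed the threshold only without 0 Gy replicate 1 (adjusted p = 0.0552) among the arrays left out in turn. At 2 Gy its levels were 2.08, 1.61, 1.79, 3.85 and 1.19, and the highest of these was within the range at 8 Gy.

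Oasl1, which in mice restrains the translation of Irf7, ranged from 1.54 to 2.96 with a median of 2.45 at 8 Gy, against -0.42 to 2.14 with a median of 0.25 at 0 Gy. The highest array at 0 Gy was the one labelled replicate 5, and the next was at 0.70, below every array at 8 Gy. The change was 1.74 ± 0.42, or 3.34-fold (adjusted p = 0.0235 in limma), and 2.07 without that array (adjusted p = 0.00275). Leaving out 0 Gy replicate 1 or 2, or 8 Gy replicate 3, 4 or 6, raised the adjusted p to between 0.051 and 0.0657. Levels of Oasl1 at 2 Gy were 0.55, 1.14, 1.34, 2.99 and 1.41.

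Oasl2 ranged from 4.90 to 6.28 with a median of 5.99 at 8 Gy, against 2.90 to 5.47 with a median of 3.95 at 0 Gy. A single array at 8 Gy, replicate 1, lay within the range at 0 Gy. The change was 1.63 ± 0.47, or 3.09-fold (adjusted p = 0.0409 in limma), and it missed the threshold when any of 12 arrays was left out, with an adjusted p of up to 0.0983. After 2 Gy, Oasl2 had levels of 4.75, 4.94, 4.20, 6.52 and 3.62. Oas3 and Oas1a had changes at 8 Gy of 1.15 (adjusted p = 0.0626) and 0.86 (adjusted p = 0.0878), and without the array labelled 0 Gy replicate 5 both passed (adjusted p = 0.0461 and 0.0212). The highest level of Oas3 at 0 Gy was 3.89, on replicate 3, above 4 of the 6 arrays at 8 Gy.

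The IFIT proteins bind foreign RNA at its end and block its translation. Of the 3 genes, 2 rose after 8 Gy, against 7.25% of all genes called higher. Ifit3 ranged from 2.16 to 4.32 with a median of 3.66 at 8 Gy, against 0.72 to 3.05 with a median of 1.32 at 0 Gy. The array labelled 0 Gy replicate 5 held the 3.05, and the other 6 were at 1.78 or less, below every array at 8 Gy. The change was 2.09 ± 0.48 (adjusted p = 0.0205 in limma), the largest fitted change among the 28 genes, and it missed the threshold without 0 Gy replicate 1 or without 8 Gy replicate 6 (adjusted p between 0.0518 and 0.0618). In the 5 mice given 2 Gy, Ifit3 had levels of 1.81, 2.45, 1.99, 4.26 and 2.76. A second probe with this name had a change of 1.87 ± 0.58. In build mm7 it lies apart from the first, at chr19:34313887-34313946 against chr19:34289919-34289978. Ifit3 has a near-identical neighbour, Ifit3b. The first probe may also read that gene, and the second may read it in place of Ifit3.

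Ifit1 ranged from 1.89 to 4.27 with a median of 3.26 at 8 Gy, against 1.27 to 2.51 with a median of 1.71 at 0 Gy, and 5 of the 6 arrays at 8 Gy were above all those at 0 Gy. The change was 1.43 ± 0.42, or 2.69-fold (adjusted p = 0.0414 in limma). Leaving out any of 14 arrays gave an adjusted p between 0.0503 and 0.0933. Levels of Ifit1 at 2 Gy were 1.89, 2.58, 1.47, 3.74 and 2.21. Ifit2, the third gene, had a change of 0.98 (adjusted p = 0.097), and of 1.20 without the array labelled 0 Gy replicate 5 (adjusted p = 0.037).

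ISG15 is a ubiquitin-like protein that is joined to other proteins, and USP18 removes it and also dampens signalling at the interferon receptor. Usp18 rose, ranging from 2.06 to 3.27 with a median of 2.89 at 8 Gy, against 0.96 to 2.29 with a median of 1.65 at 0 Gy. Only replicate 1 at 8 Gy lay within the range at 0 Gy. The change was 1.18 ± 0.31, or 2.26-fold (adjusted p = 0.0312 in limma), and it missed the threshold when any of 8 arrays was left out (adjusted p up to 0.083). Usp18 had levels at 2 Gy of 1.94, 2.40, 1.73, 3.33 and 2.30.

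Isg15 did not pass the test. It ranged from 5.71 to 7.00 with a median of 6.31 at 8 Gy, against 3.85 to 7.16 with a median of 5.59 at 0 Gy. The ranges overlapped: 0 Gy replicate 3 was higher than every array at 8 Gy, and 0 Gy replicate 4 was the lowest of the 18. The change was 0.82 ± 0.47 (adjusted p = 0.226 in limma). At 2 Gy the levels were 5.99, 6.34, 5.05, 7.02 and 5.90. The file places the single Isg15 probe on chromosome 17 in build mm7, while the gene is on chromosome 4 in GRCm38.p6.

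**Figure D2:**
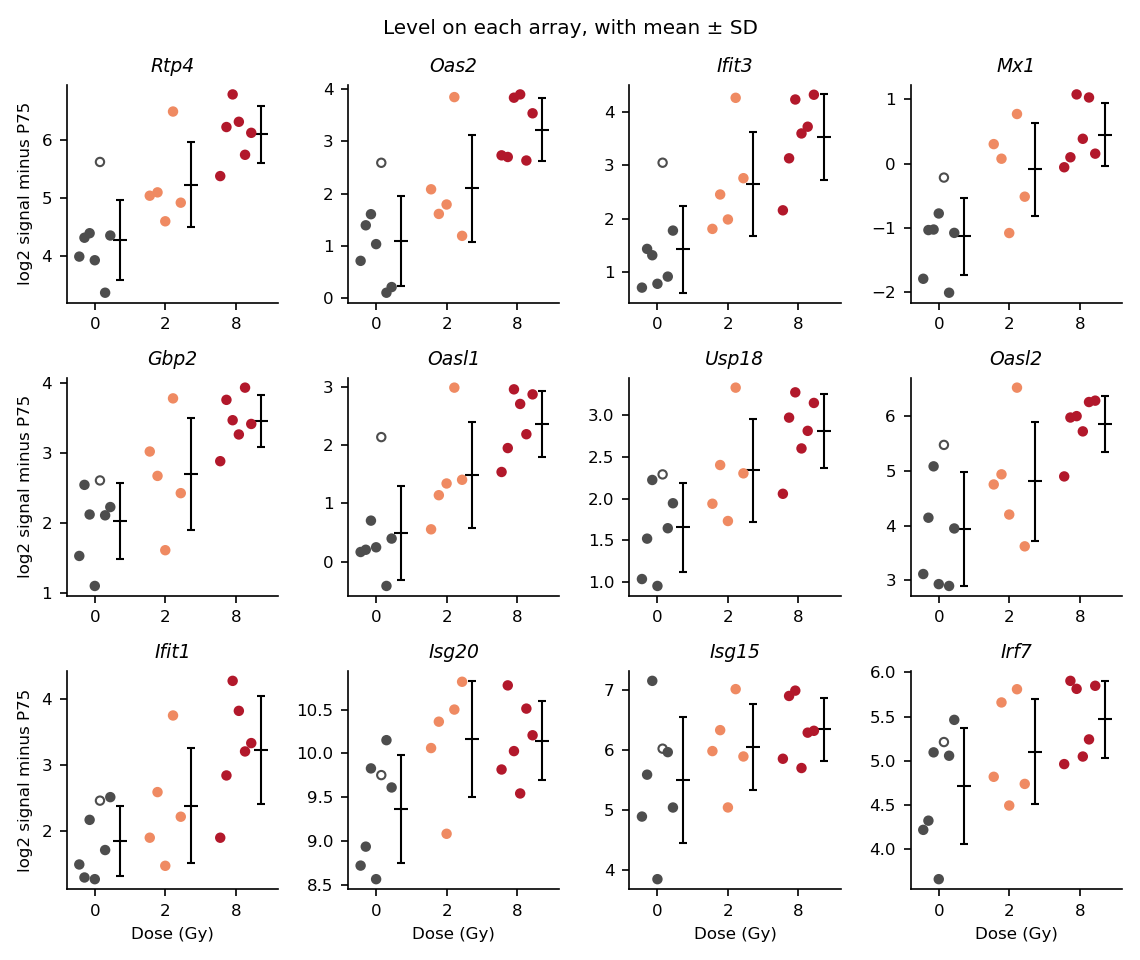
Level (y axis, log2 signal minus the array's 75th percentile) of 12 genes on every array at 0, 2 and 8 Gy (x axis), with mean ± SD beside each dose (n = 7, 5 and 6). The open point at 0 Gy is the array labelled replicate 5, the highest at 0 Gy for Ifit3, at 3.05, and for Oasl1, at 2.14.

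Mx and Gbp proteins are large GTPases that assemble on viral or microbial structures. The Mx1 gene of C57BL/6 mice is known to carry a deletion that leaves no functional protein, so its transcript is a readout of induction rather than of an antiviral activity. Mx1 ranged from -0.06 to 1.08 with a median of 0.27 at 8 Gy, against -2.01 to -0.22 with a median of -1.03 at 0 Gy. All 6 arrays at 8 Gy were above all 7 at 0 Gy. The change was 1.42 ± 0.33, or 2.68-fold (adjusted p = 0.0212 in limma), and it missed the threshold without 0 Gy replicate 1 or 2 (adjusted p between 0.0512 and 0.0626). After 2 Gy, Mx1 had levels of 0.30, 0.08, -1.08, 0.77 and -0.51.

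Gbp2 ranged from 2.88 to 3.94 with a median of 3.44 at 8 Gy, against 1.09 to 2.61 with a median of 2.12 at 0 Gy, again with no overlap. The change was 1.42 ± 0.34 (adjusted p = 0.0223 in limma), and it missed the threshold without 0 Gy replicate 1 or without 8 Gy replicate 5 (adjusted p between 0.0516 and 0.0633). Levels of Gbp2 at 2 Gy were 3.02, 2.67, 1.61, 3.78 and 2.42. Mx2 and Gbp3 did not pass the test at 8 Gy, with changes of 0.10 and -0.26 (adjusted p = 0.797 and 0.395). The Gbp3 probe carries an older name in the file, Gbp4, and was named here through its accession.

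The complex that binds the ISRE was not measured, only the transcripts of Stat2 and Irf9, which encode parts of it. Irf7 encodes the regulator of interferon alpha genes, and its transcript was measured too. None of the 3 passed the test at 8 Gy, with or without the array labelled 0 Gy replicate 5. Irf7 ranged from 4.96 to 5.90 with a median of 5.53 at 8 Gy, against 3.66 to 5.46 with a median of 5.06 at 0 Gy, and 3 of the 6 arrays at 8 Gy were above all at 0 Gy. Its change was 0.84 ± 0.33 (adjusted p = 0.0906 in limma), and its levels at 2 Gy were 4.82, 5.66, 4.49, 5.81 and 4.74. Stat2 ranged from 1.21 to 2.35 with a median of 1.97 at 8 Gy, against 0.74 to 1.78 with a median of 1.22 at 0 Gy. The ranges overlapped, and the change was 0.50 ± 0.28 (adjusted p = 0.221 in limma). The levels of Stat2 at 2 Gy were 0.95, 0.85, 1.74, 2.03 and 0.64, with 1 of them above all arrays at 0 Gy. Irf9 ranged from 2.13 to 3.21 with a median of 2.56 at 8 Gy, against 1.32 to 2.63 with a median of 2.29 at 0 Gy, also with overlap. Its change was 0.47 ± 0.27 (adjusted p = 0.22 in limma), and its levels at 2 Gy were 2.26, 2.20, 1.76, 3.02 and 2.15.

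The 4 sensors detect nucleic acid inside the cell: Ifih1 (MDA5) and Rigi (RIG-I) bind viral RNA and signal through Mavs, Dhx58 (LGP2) modulates them, and Zbp1 binds Z-form nucleic acid and can start necroptosis. None passed the test at 8 Gy with all arrays, and Ifih1 and Zbp1 did without the array labelled 0 Gy replicate 5 (adjusted p = 0.0227 and 0.0413). Zbp1 ranged from 2.98 to 3.63 with a median of 3.40 at 8 Gy, against 1.92 to 2.97 with a median of 2.64 at 0 Gy. It did not overlap between these doses, although its change of 0.76 ± 0.25 had an adjusted p of 0.0552 in limma. Its levels at 2 Gy were 3.39, 3.53, 2.38, 3.78 and 2.57. Ifih1 ranged from 1.01 to 2.56 with a median of 1.43 at 8 Gy, against -0.07 to 1.44 with a median of 0.43 at 0 Gy. The array labelled 0 Gy replicate 5 was above 3 of the 6 arrays at 8 Gy, and the change was 0.84 ± 0.27 (adjusted p = 0.0547 in limma). The levels of Ifih1 at 2 Gy were 0.93, 0.96, 1.41, 1.83 and 0.60. The changes of Rigi and Dhx58 were 0.61 and 0.41 (adjusted p = 0.114 and 0.207).

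Among the other effectors, Rtp4, a chaperone for membrane receptors that interferon induces, and Isg20, an RNA exonuclease, rose. Rtp4 ranged from 5.37 to 6.78 with a median of 6.16 at 8 Gy, against 3.37 to 5.61 with a median of 4.31 at 0 Gy. The array labelled 0 Gy replicate 5 held the 5.61, and the other 6 were at 4.39 or less, below every array at 8 Gy. The change was 1.66 ± 0.36, or 3.16-fold, with the smallest adjusted p of the 28 genes (0.015 in limma). In the 5 mice given 2 Gy, Rtp4 had levels of 5.03, 5.09, 4.59, 6.48 and 4.91, each above the other 6 arrays at 0 Gy.

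Isg20 ranged from 9.54 to 10.8 with a median of 10.1 at 8 Gy, against 8.56 to 10.2 with a median of 9.61 at 0 Gy. The ranges overlapped, with 3 of the 6 arrays at 8 Gy above all those at 0 Gy. Its change of 1.00 ± 0.30 (adjusted p = 0.0441 in limma) missed the threshold when any of 13 arrays was left out, with an adjusted p of up to 0.103. Isg20 had levels at 2 Gy of 10.1, 10.4, 9.08, 10.5 and 10.8. The other 5 tested effectors had changes between 0.19 (Bst2, or tetherin, which holds budding virus at the membrane) and 0.98 (Cmpk2, a mitochondrial nucleotide kinase next to Rsad2). Rsad2 (viperin, which makes a chain-terminating nucleotide) had a change of 0.78 (adjusted p = 0.0896), and 0.94 without the array labelled 0 Gy replicate 5 (adjusted p = 0.0389). Parp14, a mono-ADP-ribosyltransferase, had a change of 0.48 (adjusted p = 0.107).

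Ifi27l2a had a change of 0.65 (adjusted p = 0.167). The array holds a further probe with the file name Ifi27, an older symbol of this gene that is now the current symbol of another, and it was left out of the list. The pair is shown because a run of 21 bases, in capitals, is shared by the probes. A further, shorter shared run follows it in lower case, so their signals may not be separate. In build mm7 the Ifi27l2a probe lies at chr12:100937850-100937909 on the minus strand.
Ifi27l2a probe: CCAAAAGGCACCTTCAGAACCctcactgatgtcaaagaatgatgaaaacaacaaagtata
Ifi27 probe: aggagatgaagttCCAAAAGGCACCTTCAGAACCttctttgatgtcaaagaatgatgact

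The Ifi27 probe averaged 5.74 at 8 Gy and 5.14 at 0 Gy. Of the 28 genes, 11 had more than 1 probe past the filter, with the second Ifit3 probe counted by its name. At 8 Gy no gene had probes of unequal sign. At 2 Gy the signs differed for Irf9, with 0.15 for the probe used and -0.10 for the other, and for Oas3, with 0.06 and -0.02.

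The second comparison asks which of the genes differed after 2 Gy. None of the 28 passed the test in limma, against 0.0299% of all genes called higher and 0.0225% lower. A total of 9 had a higher level and 1, Gbp3, a lower level at an unadjusted p under 0.05, against 10.7% of all genes higher at that p. A positive change was fitted for 25 genes, and the median was 0.52, against 0.04 over all genes. The exceptions were Stat2, Rigi and Gbp3, with changes of -0.05, -0.14 and -0.59. Ifit3 had the largest change, 1.22 ± 0.48, or 2.33-fold (adjusted p = 0.187 in limma), followed by Mx1 with 1.00 ± 0.33 (adjusted p = 0.147), Oasl1 with 0.95 (adjusted p = 0.223), and Oas2 and Rtp4 with 0.90 each (adjusted p = 0.217 and 0.186). Without the array labelled 0 Gy replicate 5, Rtp4 alone passed (adjusted p = 0.0492 in limma), against 3.46% of all genes called higher and 2.94% called lower. In the absence of 2 Gy replicate 3, Mx1 passed (adjusted p = 0.0497 in limma), against 1.54% of all genes called in either direction. With 0 Gy replicates 4 and 5 and 2 Gy replicate 3 left out together, a setting chosen after the data were seen, 5 of the 28 genes passed, and 17.7% of all genes were called in either direction.

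The third comparison asks for a step between the doses. Limma called none of the 28 genes and 0% of all genes at 8 Gy against 2 Gy. The fitted change was positive for 26 of the 28 and the median was 0.42, against 0.05 over all genes. Rigi (0.75 ± 0.27) and Oas3 (1.09 ± 0.42) had an unadjusted p under 0.05, against 1.86% of all genes higher at that p, and both had an adjusted p of 0.928. Without 2 Gy replicate 4, 13 of the 28 had an unadjusted p under 0.05, against 8.17% of all genes in either direction, and without 8 Gy replicate 1, 9 did, against 5.61%. Without the array labelled 0 Gy replicate 5, 6 did, against 4.01% of all genes in either direction. Mx2 and Bst2 had negative changes, of -0.20 and -0.41. The comparisons of 8 Gy and of 2 Gy with 0 Gy use the same control arrays, so an order of the doses in their values is a description: the change at 8 Gy was above a positive change at 2 Gy for 23 of the 28 genes.

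Most of the genes moved together from mouse to mouse within a dose. Whether all genes on an array did so too was not tested. At 2 Gy, replicate 4 was the highest array for 26 of the 28 genes, the exceptions being Isg20 and Bst2, and for 7 genes it was above every array at 8 Gy. That array was also the dimmest of the 18, with a 75th percentile of 49.2. Replicate 3 was the lowest array at 2 Gy for 15 genes and replicate 5 for 10. At 8 Gy, replicate 3 was the highest for 16 genes and replicate 1 the lowest for 16. At 0 Gy, the array labelled replicate 5 was the highest for 17 genes, and replicates 4 and 6 were the lowest for 12 and 11. Bst2 departed from the others: its highest level was 4.65 on 2 Gy replicate 3, where most of the genes were low. With dose and kit accounted for, its correlation with the mean of the other genes was -0.21, and that of Gbp3 was 0.11. The next lowest was Stat2, at 0.47.

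**Figure D3:**
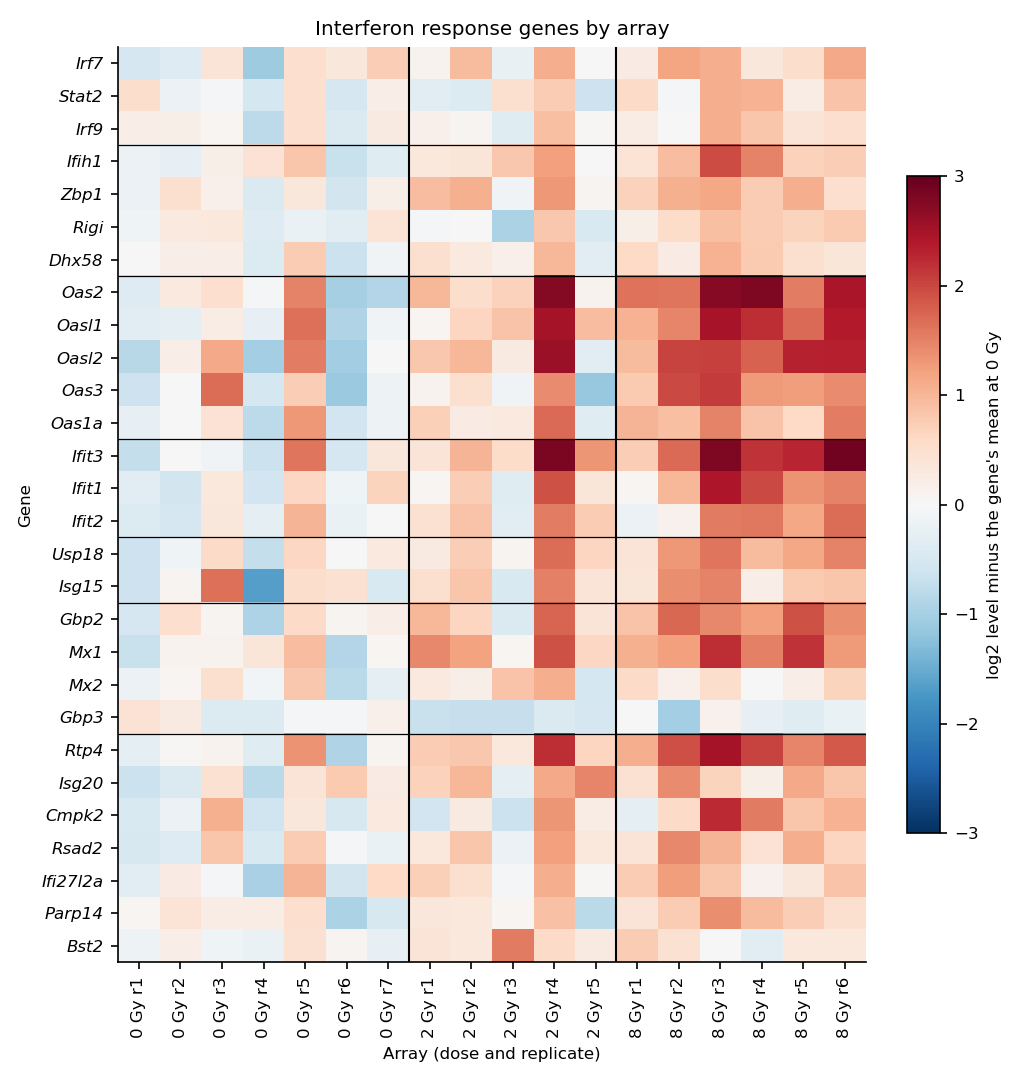
Level of the 28 genes (rows, grouped by role) on the 18 arrays (columns), as the log2 difference from the gene's mean at 0 Gy, with red above and blue below. Replicate 4 at 2 Gy is the highest of its dose for 26 genes, and the array labelled 0 Gy replicate 5 is the highest of its dose for 17.

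The mean over the 28 genes of the log2 difference from the 0 Gy mean gave 1 value per array. It ranged from 0.56 to 1.50 at 8 Gy, with a mean of 1.04 ± 0.30 (SD, n = 6), against -0.50 to 0.77 at 0 Gy (SD 0.46, n = 7). The single 0 Gy array within the range at 8 Gy was the one labelled replicate 5, and the other 6 were at 0.38 or less. At 2 Gy the 5 values were 0.38, 0.53, 0.07, 1.44 and 0.13. Arrays were spread over 8 slides, of which 5 held more than 1 dose, with 14 of the 18 arrays; 1 slide, with 3 arrays, held both 8 Gy and 0 Gy. On the slide with 8 Gy replicates 3 and 4 and 0 Gy replicate 1, the mean was 1.58 higher at 8 Gy, and 26 of 28 genes were higher. On the scan day with 8 Gy replicate 6 and the array labelled 0 Gy replicate 5, it was 0.39 higher at 8 Gy, with 20 genes higher. For 2 Gy minus 0 Gy, it was 0.44, 0.54 and -0.70 on the slides that held both, the last against the array labelled 0 Gy replicate 5. On the slide with 8 Gy replicates 1, 2 and 5 and 2 Gy replicate 4, the mean differed by -0.59 (8 Gy minus 2 Gy), and 0 of 28 genes were higher. On the scan day with 8 Gy replicate 6 and 2 Gy replicate 3, it was 1.10 higher at 8 Gy, with 25 of 28 genes higher.

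Across every array of a dose, 4 of the 28 genes did not overlap between 8 Gy and 0 Gy (Oas2, Mx1, Gbp2 and Zbp1), each higher at 8 Gy, against 0.876% of all genes. With the array labelled 0 Gy replicate 5 set aside, Ifit3, Oasl1, Rtp4, Oas1a and Dhx58 joined them, making 9 of 28, against 5.54% of all genes. At 2 Gy no gene cleared every array at 0 Gy, against 0.165% of all genes, and 3 did with that array set aside (Ifit3, Rtp4 and Bst2), against 1.8%. No gene had every array at 8 Gy above every array at 2 Gy, against 0.0674% of all genes.

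Between the RNA kits, Parp14 was the one gene of the 28 past the threshold in the model with dose. It was lower with PAXgene than with RiboPure, by a log2 difference of -1.07 ± 0.23 (SE, limma, adjusted p = 0.0167), against 3.68% of all genes called in either direction. A total of 23 of the 28 genes had a lower fitted level with PAXgene, the kit of 2 arrays at 0 Gy, 1 at 2 Gy and 0 at 8 Gy.

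The pathway around these genes was described with further lists, starting with the interferons. Of 21 interferon genes, 15 had a named probe and 7 were tested. None passed in limma at 8 Gy, against 11.9% of all genes called in either direction. None had an unadjusted p under 0.05 there, against 33.2% of all genes in either direction. All 7 had a positive fitted change at 8 Gy and at 2 Gy, with medians of 0.29 and 0.57. The medians over all genes were 0.06 and 0.04. Ifnb1, the first interferon made in many responses, had 1 probe, and it passed the background test on no array. Ifng, the type II interferon of T and NK cells, had a change of 0.53 ± 0.43 at 8 Gy (adjusted p = 0.402), and Ifnab, Ifna9 and Ifnl3 had changes of 0.73, 0.29 and 0.32 (adjusted p between 0.292 and 0.667). Interferon alpha genes are near copies of each other, so single probes may read several.

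Of 14 receptor and JAK-STAT genes, 3 rose after 8 Gy and none fell, and 7 rose without the array labelled 0 Gy replicate 5. The share of all genes called higher was 7.25%, and 14.5% without that array. Socs3, which inhibits cytokine receptor kinases, averaged 7.23 ± 0.39 at 8 Gy and 4.63 ± 1.06 at 0 Gy (SD, n = 6 and 7), a change of 2.28 ± 0.45 (adjusted p = 0.0106 in limma). Ifnlr1, the receptor chain for interferon lambda, had a change of 2.57 ± 0.62 (adjusted p = 0.0229), and Stat3 of 0.75 ± 0.23 (adjusted p = 0.0475). Of the type I pathway, Ifnar2, Jak1, Ifnar1 and Tyk2 did not pass with all arrays. Ifnar2 had a change of 0.55 (adjusted p = 0.0519), Jak1 of 0.64 (adjusted p = 0.129), Ifnar1 of 0.47 (adjusted p = 0.237) and Tyk2 of -0.21 (adjusted p = 0.434). Without the array labelled 0 Gy replicate 5, Ifnar2 passed (adjusted p = 0.0406). Ifngr1, the type II receptor, had a change of 0.39 (adjusted p = 0.252).

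Of 21 tested genes that act between nucleic acid sensing and interferon production, 2 rose after 8 Gy and none fell: Myd88, the adaptor of Toll-like receptors, by 1.51 ± 0.36 (adjusted p = 0.0225 in limma), and Ikbke, a kinase that activates Irf3, by 0.90 ± 0.22 (adjusted p = 0.0236). The 2 of 21 stand against 7.25% of all genes called higher, and 5 of 21 rose without the array labelled 0 Gy replicate 5, against 14.5%. Irf3 itself had a change of 0.08 (adjusted p = 0.821), and Irf5 and Rnaseh2a had changes of -0.70 and -0.69 (adjusted p = 0.0601 and 0.0575). The median over these 21 genes was 0.21.

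Of 51 tested interferon-stimulated genes outside the list of 30, 12 rose and 1 fell after 8 Gy, with a median of 0.39. These counts stand against 7.25% of all genes called higher and 4.68% lower. Slfn4, a Schlafen gene of myeloid cells, had the largest change of those named, 2.96 ± 0.66 (adjusted p = 0.0173 in limma), followed by Slfn1 with 1.79 ± 0.47 (adjusted p = 0.0314), Ifitm2, which blocks virus entry, with 1.46 ± 0.34 (adjusted p = 0.0199), and Ube2l6, the conjugating enzyme for ISG15, with 1.11 ± 0.30 (adjusted p = 0.0334). Ifi203 was the gene that fell, by 0.81 on the log2 scale (adjusted p = 0.043), and was named after its value was seen. Without the array labelled 0 Gy replicate 5, 18 rose and 2 fell, against 14.5% of all genes called higher and 7.82% lower.

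Of 26 tested genes known for their response to type II interferon, 4 rose and 2 fell after 8 Gy, and 5 rose and 2 fell without the array labelled 0 Gy replicate 5. Over all genes, 7.25% were called higher and 4.68% lower at 8 Gy, and 14.5% and 7.82% without that array. Irgm2, an immunity-related GTPase, had a change of 1.12 ± 0.21 (adjusted p = 0.00945 in limma) and Icam1, an adhesion molecule, of 1.02 ± 0.23 (adjusted p = 0.0195). Ciita, the activator of MHC class II genes, fell by 2.84 on the log2 scale (SE 0.57, adjusted p = 0.0114), and Irf8, a transcription factor of B cells and dendritic cells, fell by 1.18 (SE 0.26, adjusted p = 0.0156). Irf1 had a change of 0.79 (adjusted p = 0.0524). At 2 Gy none of the 119 tested genes of these pathway lists passed in limma. Leaving out the array labelled 0 Gy replicate 5, 6 of them were higher and 2 lower at 2 Gy, against 3.46% and 2.94% of all genes.

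Markers of some cell types differed between 8 Gy and 0 Gy, and no B-cell or neutrophil marker passed at 8 Gy against 2 Gy. At 8 Gy, 11 of 12 B-cell markers fell and 10 of 13 neutrophil markers rose, with median changes of -3.25 and 2.29. When the array labelled 0 Gy replicate 5 was left out, 11 B-cell markers fell and 1 (Cr2) rose, and 11 neutrophil markers rose. Over all genes, 7.25% were called higher and 4.68% lower at 8 Gy, and 14.5% and 7.82% without that array. No B-cell or neutrophil marker passed in limma at 2 Gy with all arrays, and 11 B-cell markers fell and 7 neutrophil markers rose without that array. At 2 Gy without it, 2.94% of all genes were called lower and 3.46% higher. Of 8 tested plasmacytoid dendritic cell markers other than Bst2, 5 fell, with a median of -1.17; these cells make large amounts of type I interferon, and the 5 that fell were Spib, Ly6d, Tcf4, Irf8 and Pacsin1, the first 4 of which B cells also express. Of 12 platelet markers 3 rose, with a median of 1.00, and 12 rose without the array labelled 0 Gy replicate 5. Of 11 erythroid markers 1 rose, and 3 rose without that array, against the 7.25% and 14.5% of all genes. None of 12 T-cell, 11 NK-cell or 13 monocyte markers passed in limma at 8 Gy. Without that array the T-cell count was still 0, 2 NK-cell markers rose (Klrb1c and Nkg7), and 1 monocyte marker rose (Itgal) and 1 fell (Ly86). Cr2 and these 4 genes were named after their values were seen.

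The mean of the neutrophil markers per array ranged from 0.77 to 3.22 at 8 Gy, against -0.85 to 1.83 at 0 Gy, where the highest was the array labelled replicate 5. That of the B-cell markers ranged from -4.03 to -1.09 at 8 Gy, against -1.92 to 0.86 at 0 Gy, where the lowest was the same array. At 8 Gy, replicate 1 had the lowest mean of the interferon response genes (0.56), the lowest neutrophil mean (0.77) and the highest B-cell mean (-1.09). At 2 Gy, replicate 4 had the highest mean of the interferon response genes (1.44), the highest neutrophil mean (2.80) and the lowest B-cell mean (-3.72). Other arrays were ordered differently. At 8 Gy, replicate 4 had the highest neutrophil mean (3.22), with 1.04 for the interferon response genes. Replicate 3 at 8 Gy had the highest mean of these genes (1.50) and the lowest B-cell mean (-4.03), with a neutrophil mean of 2.41. Replicate 5 at 2 Gy had a neutrophil mean of 1.72, with 0.13 for these genes. The part of the cell marker shifts in the values of the interferon response genes was not tested.

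**Figure D4:**
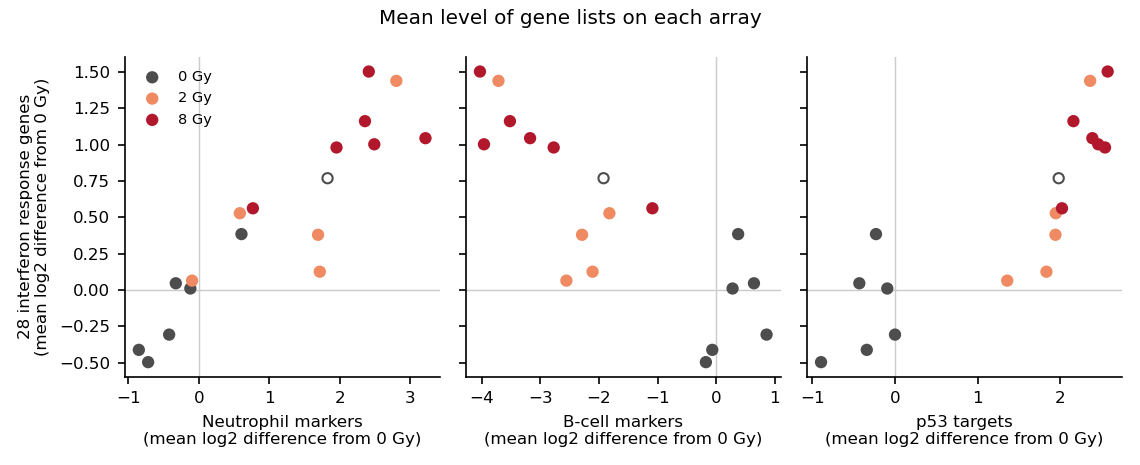
Mean log2 difference from the 0 Gy mean over the 28 interferon response genes (y axis) against that over neutrophil markers, B-cell markers and p53 targets (x axes) on each of 18 arrays, coloured by dose. The open point is the array labelled 0 Gy replicate 5, at 0.77 for the interferon response genes and 1.98 for the p53 targets.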

How the data were processed

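The arrays measured RNA of 18 blood samples, 1 per mouse. The deposited scanner files hold an intensity per spot; per the file headers, the authors made it in Agilent Feature Extraction 9.5.3.1, which subtracted background and detrended the signal; the submitters' processing notes also name limma, with no step given. The deposited value table holds a further intensity on a linear scale, used only as an alternative. Processed signals were taken to log2, averaged per probe after leaving out outlier spots, and reduced by the 75th percentile of each array. Names were updated through RefSeq accessions and symbols. Probes well above background on at least 5 arrays were kept, and the probe with the highest mean stood for its gene. Limma 3.58.1 (R 4.3.3) fitted 1 model of dose and kit over the 18 arrays, tests were 2-sided, and p was adjusted by Benjamini-Hochberg over 13357 genes. On simulated data for 8 Gy against 0 Gy over 13357 genes, 36% of log2 changes of 1 and 78% of changes of 2 were recovered. The simulation changed 200 genes, 100 for each size, and gave 7 false calls. In the data 1593 genes were called. Recovery after adjustment depends on how many genes change, so these shares may not carry over to the data.

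The 30 genes and all lists were chosen with earlier results of these data known. Statistics in full are given for the 12 genes of the list with the smallest p at 8 Gy, for any past the threshold, and for Irf7, Irf9, Stat2 and Isg15. From each pathway list, up to 4 genes with the smallest p are named, with Ifnar1, Ifnar2, Ifngr1, Jak1, Tyk2, Irf1, Irf3, Ifnb1 and Ifng; 1 further gene is not reported here. The values rest on the number of arrays, which limits their precision. Same-numbered samples of different doses did not deviate together (16 pairs, correlations from -0.496 to 0.31), so replicate numbers were not used as pairs. A score per array is the mean over a list of the difference from the 0 Gy mean. Among the alternatives were other normalizations, filters, kit and slide terms, and each array left out.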

Additional observations from a re-analysis of the deposited data

Results flagged for a closer look

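Within each dose, every one of the 28 genes and their mean was checked for an array far from the others, by setting the gap to the nearest array against the whole range of the dose; chance marks about 1 in 20 such groups, and 2 of 87 were marked. Bst2 on 2 Gy replicate 3 was at 4.65, with the next array at 3.66. Rtp4 on 2 Gy replicate 4 was at 6.48, with the next array at 5.09.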

How the results depend on the processing

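The direction of the median of the 28 genes was positive in all 3 comparisons under all 33 alternatives, ranging from 0.44 to 1.01 at 8 Gy against 0 Gy, from 0.23 to 0.65 at 2 Gy against 0 Gy and from 0.19 to 0.64 at 8 Gy against 2 Gy. The calls did not hold as well. At 8 Gy against 0 Gy the number of the 28 genes past the threshold (10) was 3 with normexp background correction, where their median was 0.44, 6 without the filter on dim probes, 1 with the RiboPure arrays only, 6 with the slide as a random block, 1 with the replicate block, and 0 with fixed terms for slide, scan day or array brightness. The number over all genes (1593) was 566 without the filter, 267 with the RiboPure arrays only, 582 with the slide as a random block, 244 with the replicate block, 775 with only the arrays of the 2 doses, 0 with the fixed blocks and brightness, and 3473 with the 3 arrays left out together. With normexp the number over all genes was higher, at 2047 (15.3%), while that of the 28 was lower. At an unadjusted p under 0.05, normexp left 9 of the 28 genes, against 36.6% of all genes in either direction. Of all genes called, 60.8% were higher, against 46.0% with quantile normalization, 45.9% with normexp and 45.5% with the deposited table. Leaving out 1 array gave 1 to 16 of the 28 genes and 263 to 2980 of all genes. At 2 Gy against 0 Gy, the number over all genes (7) was 53 with normexp, 73 with the replicate block, 2 with only the arrays of the 2 doses, 2367 with the 3 arrays left out together, and 0 without the filter, with the RiboPure arrays only and with the fixed terms for slide, scan day or brightness; leaving out 1 array gave 0 to 855, and 0 to 1 of the 28 genes. With the 3 arrays left out together, 5 of the 28 passed, while 17.7% of all genes did. No call at 8 Gy against 2 Gy changed under any alternative. Over the 28 single genes at 8 Gy, 128 values lost and 26 gained the threshold among 924; Rtp4 passed under 28 of the 33 alternatives, Oas2 and Ifit3 under 27, Mx1 under 26, Gbp2 under 25, Oasl1 under 22, Usp18 under 17, Oasl2 and Ifit1 under 11 and Isg20 under 8. The cause of these changes was not tested. The pathway lists were recomputed only without the array labelled 0 Gy replicate 5.

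Dim probes limit what can be said of interferon genes and Ifi44. A total of 5 of the 8 slides and 5 of the 7 scan days held more than 1 dose, and 1 slide and 2 scan days held both 8 Gy and 0 Gy. Replicate numbers are not stated to pair the mice.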
